A study of Mus musculus with 2 samples.

Results

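The cells described here were Prss34-high basophil cells of mouse bone marrow that carried almost no Mki67 or Top2a mRNA, taken from a sort of E-cadherin+ cKIT+ cells. There were 598 of them among 6632 cells in the cKIT+ library, a share of 9.02% (exact binomial 95% interval 8.34 to 9.73), and 10377 cells in the whole series. A cell was a member when it had at least 2000 UMIs (unique molecular identifiers, each counting 1 captured mRNA molecule), at least 0.5% of them from Mcpt8, Fcer1a, Ms4a2 and Cd200r3 together, and at least 1% from Prss34. In addition Cd79a, C1qa, Prg2 and Gzmb each had fewer than 3 UMIs, Elane and Prtn3 together made up less than 0.5% of UMIs, and Mki67 and Top2a together had at most 1 UMI. Members were thus chosen by the measured levels of these genes, which are given below as a description and support nothing.

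Basophils are rare circulating granulocytes that arise in the bone marrow under the transcription factors GATA2 and C/EBPα, with interleukin-3 as a growth factor. They carry the high-affinity IgE receptor, made of the α chain Fcer1a, the β chain Ms4a2 and the γ chain Fcer1g, and on activation release granule proteases, histamine, lipid mediators and cytokines. Mcpt8 and Prss34 encode serine proteases of mouse basophil granules (mMCP-8 and mMCP-11), and CD200R3 is an activating receptor of basophils and mast cells. KIT is the receptor of stem cell factor, found on early progenitors and on mast cells, and E-cadherin (Cdh1) is an adhesion molecule best known from epithelia.

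The study asked how E-cadherin+ cells with and without surface cKIT relate to each other. E-cadherin+ cells from the bone marrow of FVB mice, with no treatment named, were split by surface cKIT into a cKIT+ and a cKIT- sort, and each sort gave 1 droplet library of 3' mRNA ends. Ages were not given, and the donors are called wild-type in the study's text and Vav-iCre;mTmG control mice in its legend. In the latter, Vav-iCre acts in blood-forming cells and switches on a fluorescent reporter. Cells of several mice were pooled in a sort. With 1 library per sort there is no test: a difference between the sorts cannot be told apart from a difference between the libraries, and every interval below covers counting error only.

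Levels are given in CPM, the UMIs of a gene summed over a set of cells and scaled to a total of 1000000 UMIs for that set, with exact Poisson intervals. Members were compared with 3 other sets: 491 Prss34-low cells of the cKIT+ library that met every other part of the rule, 943 cells of the cKIT- library that met the whole rule, and 1445 cells of the cKIT+ library that met it except for having 2 or more UMIs of Mki67 and Top2a. The last set is called cycling and the others resting, a name that rests on these 2 genes. In each comparison a gene was measured if it reached 50 CPM in either set. A gene that reached it in a single set could differ only in the direction of that set. Counts and medians over lists partly follow from this minimum. The median member had 10888 UMIs and 2895 detected genes, against 10731 and 2951 in the Prss34-low cells, 5897 and 2025 in the cKIT- cells and 16326 and 3834 in the cycling cells. The cKIT- cells were thus sampled less deeply, which makes the limits set in UMIs easier to meet there.

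The libraries had 10 cell barcodes in common, of which 2 belonged to members. Of the 598 members, 6 stood apart from the rest: S100a8, S100a9, Camp, Ngp, Ltf, Lcn2 and Retnlg, which encode neutrophil granule and cytosolic proteins, made up between 7.51% and 27.9% of their UMIs, and at most 0.143% in any other member. Those 6 cells are described further below, and most neutrophil gene results that rest on them are given with and without them.

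The rule rests on Prss34 and on 3 basophil surface receptor genes besides Mcpt8. For Prss34, Fcer1a and Cd200r3, and for Igfbp7, the marker whose level is compared below, the 250 bases before the RefSeq gene start are shown to let the letters be read beside the levels. Of 6 genes looked up, 5 had a window in RefSeq on GRCm38.p6, and sequences run 5′ to 3′ on the gene's strand. Capitals mark GATAA or its reverse TTATC, the core letters bound by GATA factors, and TGTGGT or its reverse ACCACA, the core letters bound by RUNX factors. Over all 32851 windows of this length, 22.58% held GATAA on either strand and 14.05% held TGTGGT. The window of Prss34 is chr17:25298144-25298393 (+), that of Fcer1a chr1:173227230-173227479 (-), that of Cd200r3 chr16:44943428-44943677 (+) and that of Igfbp7 chr5:77408046-77408295 (-).
Prss34: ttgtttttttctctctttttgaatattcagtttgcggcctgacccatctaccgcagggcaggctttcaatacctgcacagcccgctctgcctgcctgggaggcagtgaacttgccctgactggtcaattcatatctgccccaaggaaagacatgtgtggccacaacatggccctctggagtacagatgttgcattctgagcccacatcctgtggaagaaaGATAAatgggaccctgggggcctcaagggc
Fcer1a: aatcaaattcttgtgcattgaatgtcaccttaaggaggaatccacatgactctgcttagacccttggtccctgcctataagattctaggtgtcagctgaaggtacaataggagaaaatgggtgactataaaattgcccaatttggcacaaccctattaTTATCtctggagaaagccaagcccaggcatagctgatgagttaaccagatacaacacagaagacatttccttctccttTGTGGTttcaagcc
Cd200r3: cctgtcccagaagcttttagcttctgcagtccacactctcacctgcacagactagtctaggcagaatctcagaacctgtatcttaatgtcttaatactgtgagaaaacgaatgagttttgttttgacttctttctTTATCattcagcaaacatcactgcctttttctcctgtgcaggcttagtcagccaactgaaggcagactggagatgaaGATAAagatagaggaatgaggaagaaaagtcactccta
Igfbp7: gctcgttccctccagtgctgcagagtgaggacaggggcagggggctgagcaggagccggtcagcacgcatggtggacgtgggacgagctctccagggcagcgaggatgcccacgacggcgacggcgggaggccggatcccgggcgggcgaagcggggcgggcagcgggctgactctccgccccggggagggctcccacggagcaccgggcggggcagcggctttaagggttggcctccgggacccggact

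The Prss34 window held GATAA 30 bases before the start and the Fcer1a window held TTATC 92 bases before it and TGTGGT nearer to it. Cd200r3 held GATAA and TTATC once each. The Mcpt8 window (chr14:56085198-56085447) held no GATAA and TGTGGT or ACCACA in 2 places, and is not shown because GENCODE places part of it within the gene. The Igfbp7 window held none of these letters and was 74.0% G and C. Such matches describe the letters in these windows and were not tested for binding.

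Prss34 was the most abundant mRNA of the members, at 26270 CPM or 2.63% of all UMIs, and Mcpt8 came next at 23540 CPM. Per member, Prss34 ran from 10015 CPM over a median of 22916 to 89910, and Mcpt8 from 3733 over 22637 to 66735. In the Prss34-low cells the summed levels were 3452 CPM for Prss34 and 12850 for Mcpt8, in the cKIT- cells 50201 and 32260, and in the cycling cells 30160 and 24931. These 2 proteases are genes of the rule, so nothing is read from the order of the sets. The 20 most abundant genes, which took 19.3% of the members' UMIs, were otherwise ribosomal protein genes such as Rps24, Rpl13 and Rpl23, the translation factor Eef1a1, the actin-binding Tmsb4x, Tpt1, Malat1, and the mitochondrial mt-Co3 and mt-Atp6.

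Cells lay close to the Prss34 limit on both sides. In the cKIT+ library 19 cells had a Prss34 share of 1% to 1.1% and 23 had 0.9% to 1%, and the cells nearest the limit had 1.0015% inside and 0.998% outside. Cells just inside and just outside were close for Mcpt8 (20013 and 16956 CPM), Fcer1a (449 and 467 CPM), Igfbp7 (99.7 and 81.7 CPM) and Alox15 (49.9 and 58.3 CPM). Members made up 54.9% of the 1089 resting cells that met the rest of the rule. In the cKIT- library 41.7% of the 1773 resting cells had less than 0.5% Prss34 and 5.13% had 0.5% to 1%, against 31.5% and 13.6% in the cKIT+ library.

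**Figure D1:**
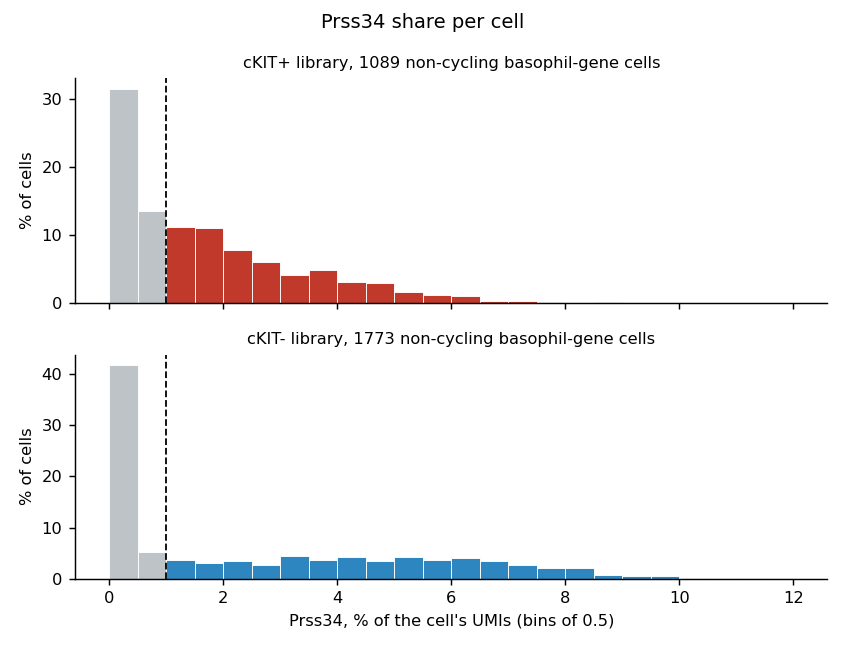
Share of each cell's UMIs that came from Prss34 (x axis, percent, bins of 0.5) against the percent of cells (y axis) among the 1089 resting cells with basophil genes of the cKIT+ library (above) and the 1773 of the cKIT- library (below). The dashed line is the 1% limit. Red bars are the 598 members, blue bars the 943 Prss34-high cKIT- cells and grey bars cells under the limit; most red bars far from the limit are lower than those near it, and the blue ones spread to higher shares.

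The basophil label was checked on genes outside the rule, and most of these were present. Cpa3, the mast cell and basophil carboxypeptidase, stood at 3529 CPM (95% interval 3484 to 3575) and had a UMI in 597 members. Fcer1g stood at 1338 CPM, Gata2 at 772 CPM, Cebpa at 443 CPM, Csf2rb, the shared β chain of the IL-3 receptor, at 311 CPM and Hdc, which makes histamine, at 261 CPM. Gata2 was seen in 594 of the 598 members, Igfbp7 in 384 and Alox15 in 334. At 2000 UMIs per cell, Gata2 had a UMI in 80.3% of members (76.8 to 83.4) and Hdc in 40.1% (36.2 to 44.2), against 3.03% and 4.55% of the B cell-marked cells described below. Of the 13 basophil markers listed, Itga2 alone had no UMI in any member, an upper limit of 3 UMIs in 6519913.

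Markers of other cell types were mostly at or near 0. Of 10 mast cell markers 5 had no UMI, among them the tryptase Tpsb2 and Mrgprb1, and the chymase Cma1 had 8 UMIs (1.23 CPM). The list summed to 18.4 CPM, nearly all of it Kit. Sums over these lists leave out genes of the rule. The eosinophil markers summed to 83.0 CPM, led by Ear2 at 45.4 CPM, with 2 UMIs of Il5ra. The monocyte and macrophage markers summed to 47.9 CPM (most abundant F13a1, 20.4 CPM), the B and plasma cell markers to 60.4 CPM (Cd79b, 49.8 CPM) and the 11 erythroid markers to 45.2 CPM (Car2, 13.7 CPM). The dendritic cell list summed to 1166 CPM, of which Cst3, a widely expressed protease inhibitor, made 1083, and the T and NK cell list to 964 CPM, of which the granule gene Nkg7 made 824. Itga2b made 230 of the 232 CPM of the megakaryocyte list. The excluded genes were low: Cd79a stood at 0.307 CPM, C1qa at 0.920, Gzmb at 3.07, Prg2 at 6.90, Elane at 58.3 and Prtn3 at 130 CPM.

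Granulocyte progenitor genes were a different case. The 10 neutrophil and granulocyte progenitor markers outside the rule summed to 12256 CPM, and to 9469.8 CPM without the 6 cells that stood apart. Much of this was Ctsg, which encodes cathepsin G, at 4393 CPM in 594 members, and Mpo, myeloperoxidase, at 3568 CPM in 589 members. After thinning every cell to 2000 UMIs, Ctsg had a UMI in 98.2% of members (96.7 to 99.1) and Mpo in 96.2% (94.3 to 97.5). In 66 cells of the same library with 3 or more UMIs of Cd79a, a B cell receptor component, the shares were 6.06% (1.68 to 14.8) and 10.6% (4.37 to 20.6), and unthinned they were 99.3% and 98.5% in members and 25.8% and 22.7% in the Cd79a cells, whose median was 3484 UMIs. In contrast the 7 neutrophil granule genes named above summed to 3186 CPM, and 93.0% of their UMIs came from 6 cells; without those cells the sum was 228 CPM.

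Those 6 cells had 1.35% to 2.47% Prss34 and 0.952% to 2.26% Mcpt8, so they carried both sets of transcripts. Their median was 16875 UMIs against 10801 in the other 592 members. All 6 were among the 352 cells of the cKIT+ library with the highest scores from Scrublet, which compares cells with simulated doublets, as were 9 members in all. Similar cells made up 5 of the 491 Prss34-low, 2 of the 943 cKIT- and 19 of the 1445 cycling cells. Whether they were doublets was not tested further.

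**Figure D2:**
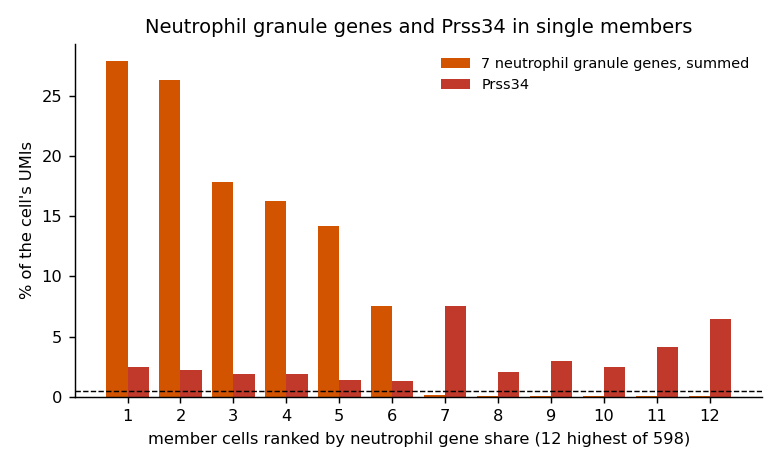
The 12 members with the highest summed share of S100a8, S100a9, Camp, Ngp, Ltf, Lcn2 and Retnlg (orange, percent of the cell's UMIs) and their Prss34 share (red), ranked from left to right. The dashed line is 0.5%. The first 6 cells have 7.51% or more from these genes and the next has 0.143%.

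The genes behind the sort were read as follows. Kit had 110 UMIs in 99 of the 598 members, 16.9 CPM (13.9 to 20.3), with at most 3 UMIs in a cell, and the other 499 had none. It stood at 24.3 CPM in the Prss34-low cells, 11.4 CPM in the cycling cells and 1.12 CPM in the cKIT- cells, 15.1-fold lower than in members (7.08 to 38.4). With every cell thinned to 2000 UMIs, 2.34% of members had a Kit UMI (1.29 to 3.90) against 0.318% of the cKIT- cells (0.0657 to 0.927); unthinned the shares were 16.6% and 0.636%. In the 66 Cd79a cells the thinned share was 3.03% (0.369 to 10.5). In 222 Cd79a cells of the cKIT- library it was 0, which allows up to 1.65%. The members' thinned Kit share was not above that of the 66 cells and is not read as a level of expression per cell. Whether the share in the 66 cells is free RNA, and its part in the 15.1-fold difference, was not tested.

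Cdh1 stood at 129 CPM (121 to 138) in members, with a UMI in 440 cells and a median of 106 CPM per cell. It was 109 CPM in the Prss34-low, 108 CPM in the cycling and 204 CPM in the cKIT- cells. At 2000 UMIs per cell, 20.4% of members had a Cdh1 UMI (17.2 to 23.9) against 36.5% of the cKIT- cells (33.4 to 39.6) and 0 of the 66 Cd79a cells, which allows a share of up to 4.55%. In 222 Cd79a cells of the cKIT- library it was 0.901% (0.109 to 3.22). Unthinned, 73.6% of members and 72.4% of the Prss34-high cKIT- cells had a Cdh1 UMI. Cdh1 mRNA was thus carried by the members at a lower level than in the cKIT- cells.

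At the minimum of 50 CPM, few genes passed 2-fold between members and the Prss34-low cells of the same library. Of the 2690 genes with at least 50 CPM in one of both sets, 13 were at least 2-fold higher in members, 0.483% of those measured, and none was 2-fold lower (0%). With each cell given the same weight, 9 were higher and 2 lower, and with TMM scaling 21 were higher and 0 lower. A minimum of 10 UMIs over both sets gave 247 higher and 265 lower among 11142 genes. The genes this added were under 50 CPM in both sets, down to 10 UMIs, where counting error alone can pass 2-fold. Its part was not tested, so the low and one-sided count holds for the 50 CPM minimum only. Prss34 itself and Fcer1a, at 746 against 277 CPM, are genes of the rule. The other 11 were Chil3, Igfbp7, Alox15, Prss28, Ngp, Lcn2, Camp, Sdf2l1, Tpd52l1, Gsn and Pglyrp1. Of these, Chil3, Igfbp7, Alox15, Prss28, Tpd52l1 and Gsn reached 50 CPM in members alone and could only be higher. Counts of this kind are given with no test.

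Igfbp7, which encodes a secreted insulin-like growth factor binding protein, stood at 142 CPM in members and 47.7 CPM in the Prss34-low cells, 2.99-fold higher (2.60 to 3.45). Alox15, the 12/15-lipoxygenase of lipid mediator synthesis, stood at 98.6 against 35.3 CPM, 2.79-fold higher (2.37 to 3.31). At 2000 UMIs per cell, Igfbp7 had a UMI in 25.6% of members (22.1 to 29.3) and 10.4% of Prss34-low cells (7.83 to 13.4), and Alox15 in 16.7% (13.8 to 19.96) and 8.76% (6.41 to 11.6). Unthinned the shares were 64.2% and 30.1% for Igfbp7 and 55.9% and 26.7% for Alox15. In the 66 Cd79a cells Igfbp7 had none, which allows up to 4.55%, and Alox15 had 1.52% (0.0384 to 8.16). Both genes were thus carried by more of the members, above the share in the Cd79a cells.

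Prss28 encodes a related serine protease and lies at chr17:25308646-25311876 (GRCm38), close to Prss34 at chr17:25298394-25300165, both on the plus strand. It stood at 63.5 against 22.8 CPM, 2.79-fold higher (2.27 to 3.44). Reads of near-identical stretches could have been divided between these paralogs, so the Prss28 value is uncertain. Pglyrp1, a peptidoglycan recognition protein of granules, was 147 against 72.1 CPM, and Gsn, the actin-severing gelsolin, was 2.05-fold higher (1.77 to 2.38).

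Chil3, Ngp and Camp depended on the 6 cells that stood apart. Chil3, a chitinase-like protein, was 3.62-fold higher with all cells and 1.23-fold without the cells rich in neutrophil genes in either set. Ngp went from 2.55-fold to 1.18-fold and Camp from 2.21-fold to 0.974-fold. A single member held 51.2% of the Chil3 UMIs, 40.7% of the Ngp UMIs and 32.1% of the Camp UMIs. Without those cells 10 genes remained 2-fold higher, all of them among the 13. Igfbp7 was then at 3.04-fold and Alox15 at 2.81-fold, and Lcn2 went from 2.29-fold to 3.49-fold.

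Granule proteases are made in the endoplasmic reticulum. Of 27 protein folding genes of this compartment measured on the list of 28, 1 was at least 2-fold higher in members and 26 had a ratio above 1, with a median of 1.29 against 0.957 over all genes measured. That 1 was Sdf2l1, a cofactor of the chaperone BiP, at 235 against 113 CPM, 2.08-fold (1.89 to 2.29). Hspa5, which encodes BiP, was 674 against 427 CPM, and Calr, calreticulin, 2847 against 2239 CPM. At 2000 UMIs per cell these 28 genes gave a median of 25 UMIs per member, 18 per Prss34-low cell, 15 per cKIT- cell and 31 per cycling cell.

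No early progenitor gene passed 2-fold. Of 7 measured on the list of 19, 1 had a ratio above 1, with a median of 0.646. Sox4, a transcription factor of progenitors, was 145 CPM in members and 233 in the Prss34-low cells, Apoe, apolipoprotein E, 960 and 1485 CPM, and Cd34, a progenitor surface protein, 70.2 and 97.4 CPM. Lmo4, a LIM-only transcription cofactor, was 867 and 1350 CPM. Tmem176b was 74.5 and 132 CPM and the integrin chain Itga4 58.3 and 98.5 CPM. By contrast, 75 cytosolic ribosomal protein genes had a median ratio of 0.934, close to that of all genes. No gene past 2-fold was found on the lists of granule proteases (3 measured), cytokine receptors (8), cytokines and chemokines (5), transcription factors (15), adhesion molecules (15), lysosome (14), exocytosis (6) or S phase (12), nor among 6 Fc receptor genes other than the rule's.

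Within the members, the cells of most Prss34 differed from those of least. Members were divided into 241 cells with 1 to 2% Prss34, 247 with 2 to 4% and 110 with 4% or more, with median depths of 11271, 10782 and 10008 UMIs. Among 2716 genes, 22 were at least 2-fold higher (0.81%) and 20 at least 2-fold lower (0.736%) in the highest range than in the lowest. Leaving out the genes of the rule, the counts were 20 and 18. Prss34 itself divides the ranges and had to be higher. The counts of 22 and 20 moved with the settings. After thinning to 2000 UMIs per cell they were 125 and 104 among 2997 genes. With a minimum of 10 UMIs over both ranges they were 278 and 595 among 9750. Both settings rest calls on fewer UMIs, where counting error alone can pass 2-fold more often, and its part was not tested. All values below come from cells of the same library.

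The higher genes included Igfbp7, Ccl3 and several surface receptor genes. Igfbp7 was 83.3, 151 and 273 CPM from the lowest to the highest range, 3.28-fold (2.75 to 3.91) between the ends. Ccl3, a chemokine, was 72.1, 106 and 268 CPM, 3.72-fold (3.10 to 4.48), although 351 of the 598 members had no Ccl3 UMI and 10 cells held 18.4% of its UMIs. Cd200r4, a paralog of the rule's Cd200r3, was 23.9, 52.5 and 77.3 CPM, and reads could have been divided between them. Cd200r3 was 22.8, 51.4 and 115 CPM. Cyp4f18, a leukotriene-metabolising cytochrome P450, was 47.5, 93.1 and 177 CPM, Cd69, an early activation antigen, 77.5, 111 and 205 CPM, and Ccr1, a chemokine receptor, 103 and 217 CPM at the ends. For Cyp4f18, 13.5% of all members had a UMI at 2000 UMIs per cell (10.9 to 16.6) and 10.6% of the Cd79a cells (4.37 to 20.6), against 47.2% and 10.6% unthinned. Whether the share in the Cd79a cells is free RNA was not tested. Itga1, Atp1b1, Ly6g5b, Hacd4 and Lgals3 were also between 2.40-fold and 3.30-fold higher. Cd200r4, Cyp4f18, Itga1, Atp1b1 and Ly6g5b were under 50 CPM in the lowest range, so their direction was fixed by the minimum. Of 13 basophil markers, 7 outside the rule were measured, of which 1, Igfbp7, passed 2-fold and 6 had a ratio above 1, with a median of 1.22 against 0.987 over all genes. None of 6 Fc receptor genes, 7 cytokine receptor genes or 6 histamine and lipid mediator genes passed 2-fold.

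Progenitor genes made up part of the lower ones. Sox4 was 175, 138 and 83.9 CPM, Tmem176b 93.8, 71.5 and 32.6 CPM, Itga4 82.2, 45.0 and 29.8 CPM and Rgcc, a cell cycle regulator, 139, 84.5 and 49.4 CPM. Tmem176b, Itga4 and Rgcc were under 50 CPM in the highest range and could only be lower. On the list of early progenitor genes, 3 of 7 measured were at least 2-fold lower and the median ratio was 0.569. Kit was 21.4, 16.4 and 6.52 CPM over the 3 ranges, under the 50 CPM needed to be counted. The neutrophil genes Retnlg, Ltf, S100a8, S100a9, Ngp and Camp, and Lyz2, were 4.38-fold to 77.5-fold lower, and 4 of the 6 cells rich in them fell in the lowest range, 2 in the middle and 0 in the highest. The 7 neutrophil granule genes summed to 3612, 3907 and 287 CPM over the ranges with these cells and to 194, 238 and 287 CPM without them, so their lower level at high Prss34 rested on the 6 cells. Without the 6 cells, 26 genes were at least 2-fold higher and 12 at least 2-fold lower in the highest range, and S100a9 stood at 1.22-fold, Camp at 1.12-fold and Ngp at 0.795-fold. Lyz2 stood at 0.836-fold. Lcn2 turned from 0.708-fold with all cells to 3.23-fold without them (96.0 CPM in the highest range and 29.7 in the lowest). Members of more Prss34 thus had more Igfbp7, Ccl3 and Cd69 mRNA and less Sox4 mRNA.

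**Figure D3:**
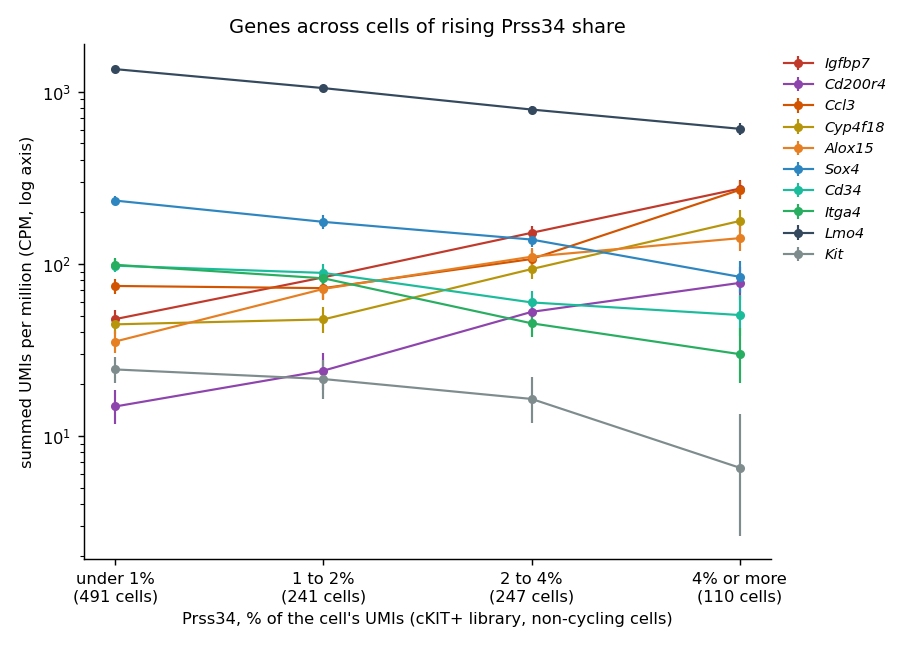
Level of 10 genes (y axis, CPM, log axis) in the Prss34-low cells and in members of 1 to 2%, 2 to 4% and 4% or more Prss34 (x axis), with exact Poisson 95% intervals as bars. Igfbp7, Cd200r4, Ccl3, Cyp4f18 and Alox15 are highest at the right, and Sox4, Cd34, Itga4, Lmo4 and Kit at the left.

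The Prss34-high resting cells of the cKIT- library differed from members in more genes. Among 2901 genes, 87 were at least 2-fold higher (3%) and 174 at least 2-fold lower (6%) in members. Leaving out the genes of the rule, the counts were 85 and 173. Without the cells of shared barcodes and with rule genes kept, they were 83 and 174. At least 5000 UMIs per cell gave 56 and 107. A minimum of 10 UMIs over both sets in place of 50 CPM gave 934 and 745 among 11145 genes. At such low counts counting error alone can pass 2-fold, and its part was not tested. Both sets met the same rule. As a description of its genes, Fcer1a was 746 CPM in members and 1436 in the cKIT- cells, and Cd200r3 49.7 and 312 CPM. Cpa3 was 3529 and 3389 CPM. Of 12 mitochondrial genome genes measured, 3 were at least 2-fold higher in members, mt-Nd4l (422 and 128 CPM), mt-Atp8 (61.7 and 21.7 CPM) and mt-Nd5 (475 and 234 CPM), while the median ratio of the 12 was 0.807. The median mitochondrial share of UMIs per cell was 3.38% in members and 4.13% in the cKIT- cells, and the highest in a member was 33.3%. Leaving out cells of 10% or more, 2 of them members, gave 83 higher and 174 lower genes; the part of RNA quality in the other differences was not tested.

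Chemokines and cytokines had the lowest median ratio of the lists in members. Of 8 measured on the list of 19, 6 were at least 2-fold lower and none had a ratio above 1, with a median of 0.205 against 0.948 over all genes. Ccl3 was 119 CPM in members and 1462 in the cKIT- cells, 12.3-fold lower (11.5 to 13.3), Ccl6 108 and 1517 CPM, 14.0-fold lower (12.99 to 15.2), and Ccl4 18.3 and 273 CPM. Ccl9 was 464 and 1966 CPM and Il6 44.0 and 126 CPM. Ccl4 and Il6 were measured through the cKIT- cells alone and could only be lower. The count, the lack of ratios above 1 and the median thus partly follow from the minimum. Ccl3, Ccl6 and Ccl9 reached the minimum in both sets. Il4, the type 2 cytokine of basophils, was 5.83 and 38.5 CPM, under the limit for counting. At 2000 UMIs per cell, Ccl3 had a UMI in 19.2% of members (16.1 to 22.6), 81.0% of cKIT- cells (78.4 to 83.5) and 1.52% of the Cd79a cells (0.0384 to 8.16), and unthinned in 41.3%, 93.5% and 3.03%. In 222 Cd79a cells of the cKIT- library, chosen in the same way, it was 3.15% (1.28 to 6.39), and 5.86% unthinned.

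Some receptor genes were lower in members too. On the list of CD200 and paired receptors, 4 of 6 measured were at least 2-fold lower, with a median of 0.25. Only Cd200r1 (85.6 CPM) reached 50 CPM in members. The others were measured through the cKIT- cells alone and could only be lower, so nothing is read from this count. Lilr4b was 21.6 and 297 CPM, and its paralog Lilrb4a, an inhibitory receptor, 6.29 and 62.5 CPM, between which reads could have been divided. The cytokine receptor genes had 3 of 9 lower, Il18r1 and Il18rap of the IL-18 receptor at 7.82 and 68.1 CPM and at 127 and 313 CPM, and Il7r at 5.06 and 52.4 CPM. Of these, Il18r1 and Il7r were measured through the cKIT- cells alone and could only be lower. Cd7, a surface protein of lymphoid cells, was the gene of the most extreme ratio at 7.67 and 173 CPM, 22.6-fold lower (17 to 30.6). F2r, a thrombin receptor, and Adora2b, an adenosine receptor, were 8.74 and 62.6 CPM and 11.2 and 109 CPM. Cd7, F2r and Adora2b were likewise under 50 CPM in members, so their direction was fixed by the minimum. Igfbp7 was 142 and 489 CPM and Alox15 98.6 and 268 CPM.

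Other lists with genes lower in members were adhesion molecules (7 of 15 lower and 1, Itga4, higher, median 0.634, with Cd9 at 307 and 897 CPM and the β2 integrin Itgb2 at 85.9 and 237 CPM), chemoattractant receptors (4 of 7, median 0.453, with Ccr1 at 134 and 353 CPM) and immediate early genes (6 of 10, median 0.489, with Junb at 75.2 and 190 CPM and Btg2 at 57.7 and 163 CPM). Some chemoattractant receptor and immediate early genes reached 50 CPM in the cKIT- cells alone and could only be lower. Itga4 reached it in members alone and could only be higher. These counts and medians thus partly follow from the minimum. Cd9, Itgb2, Ccr1, Junb and Btg2 reached it in both sets. Immediate early genes also respond to sorting and handling, which could not be told apart between the libraries. Of the other lists, 2 of 6 histamine and lipid mediator genes and 2 of 6 cell cycle inhibitor and D cyclin genes were at least 2-fold lower. Some genes of the latter list were measured through the cKIT- cells alone and could only be lower. The Fc receptor (1 of 9), lysosome (1 of 16), exocytosis (1 of 10) and STAT5 target (1 of 2) lists had a single lower gene each, from which nothing is read. None of 3 granule proteases, 6 BCL2 family genes or 12 S phase genes passed 2-fold in either direction. Hdc was 261 and 502 CPM and Alox5ap, which presents arachidonic acid to 5-lipoxygenase, 817 and 1795 CPM.

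**Figure D4:**
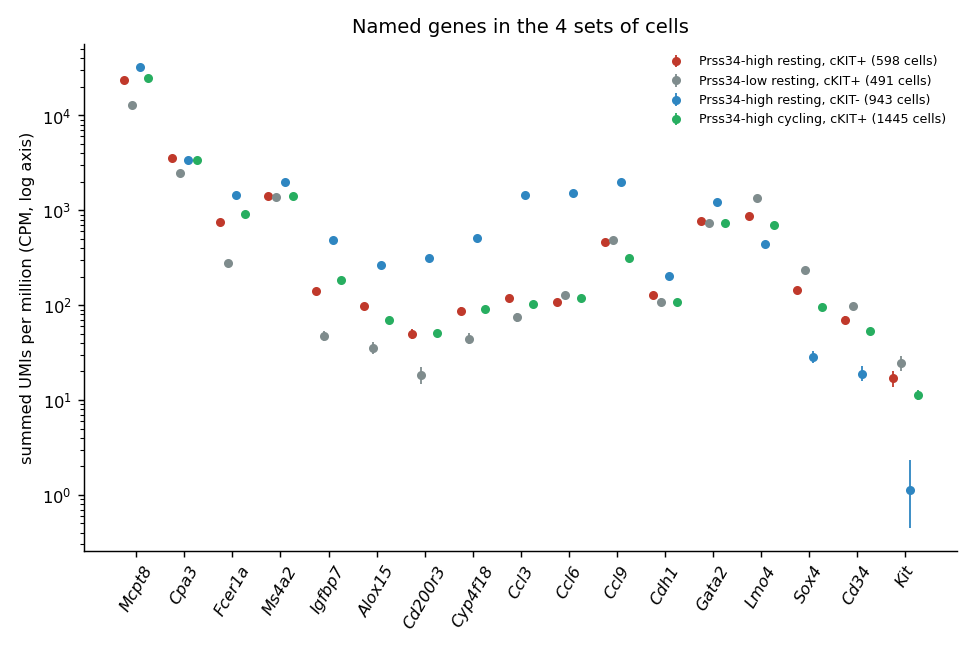
Level of 17 genes (x axis) in the 4 sets of cells (y axis, CPM, log axis), with exact Poisson 95% intervals, most smaller than the points. Members (red) lie between the Prss34-low cells (grey) and the cKIT- cells (blue) for Igfbp7 and Alox15 and, in the reverse order, for Lmo4, Sox4, Cd34 and Kit at the right; Mcpt8, Fcer1a, Ms4a2 and Cd200r3 are genes of the rule, shown as a description.

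Genes higher in members than in the cKIT- cells included progenitor genes. On that list 4 of 7 measured were at least 2-fold higher, with a median of 3.70: Sox4 at 145 and 28.4 CPM, 5.09-fold (4.33 to 6.01), Tmem176b at 74.5 and 14.5 CPM, Tmem176a at 74.7 and 16.5 CPM, and Cd34 at 70.2 and 19.0 CPM. These 4 reached 50 CPM in members alone and could only be higher, so nothing is read from the count. Sox4 had a UMI in 21.6% of members at 2000 UMIs (18.3 to 25.1), 3.08% of the cKIT- cells (2.07 to 4.39) and 40.9% of the Cd79a cells (29.0 to 53.7), and unthinned in 62.2%, 11.9% and 57.6%. In the 222 Cd79a cells of the cKIT- library it was 12.2% (8.17 to 17.2), above the 3.08% of the basophil cells there, so for Sox4 the Cd79a cells do not measure free RNA and no background is given. Rgcc was 102 and 8.63 CPM, 11.8-fold higher (8.94 to 15.9), Gm17590 225 and 25.1 CPM, AY036118 122 and 28.4 CPM and Itga4 58.3 and 15.8 CPM. Rgcc, Gm17590, AY036118 and Itga4 also reached 50 CPM in members alone, so their direction was fixed by the minimum. Myb, a transcription factor of proliferating progenitors, was 213 and 95.0 CPM, and Lmo4 867 and 441 CPM. Of 35 lineage transcription factors 17 were measured, Myb was the 1 that was higher, and Nfil3 and Id2 were at least 2-fold lower. For Lmo4, Sox4, Cd34, Itga4 and Tmem176b the order of levels from highest to lowest was Prss34-low cells, members, cKIT- cells.

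Neutrophil and granulocyte progenitor genes were also higher, 6 of 9 measured, with a median of 2.42. Mpo was 3568 and 1477 CPM, 2.42-fold higher with all cells and 2.43-fold without the cells rich in neutrophil genes, and 589 members carried it. Retnlg (126 and 13.1 CPM) went from 9.65-fold to 1.101-fold without those cells, and Ngp (258 and 67.1 CPM) from 3.84-fold to 6.503-fold, with UMIs in 23 and 84 members. Without those cells Ngp was 13.6 and 2.09 CPM and Retnlg 2.65 and 2.41 CPM, all under the 50 CPM minimum. With the highest Scrublet scores left out, Ngp was 0.195-fold and Retnlg 0.456-fold, and with a Prss34 limit of 2% Retnlg was 0.512-fold. The Scrublet step took out all 6 such members, and the 2 sets need not lose such cells alike. The direction of both genes thus depended on which of these few cells were kept in each set, and nothing is read from it. Without the cells rich in neutrophil genes, 3 of 6 measured on the list were higher, with a median of 1.97, and in all 83 genes were at least 2-fold higher, of which 81 were among the 87. Of 75 cytosolic ribosomal protein genes measured, 1 was at least 2-fold higher in members, though all 75 had a ratio above 1, with a median of 1.54. With the others of the family they summed to 304920 CPM in members against 201680 in the cKIT- cells. Hspa5 at 674 and 325 CPM and Calr at 2847 and 1417 CPM were the 2 of 27 folding genes past 2-fold. CPM are shares of a fixed total, so this larger ribosomal share lowers the shares of all other genes.

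Few genes were higher in members than in the Prss34-high cycling cells of the same library, and those lower included every G2 and mitosis gene measured. Among 2864 genes, 8 were at least 2-fold higher (0.279%) and 142 at least 2-fold lower (4.96%) in members. Leaving out the genes of the rule, the counts were 8 and 140. With a minimum of 10 UMIs over both sets and rule genes kept, they were 365 and 797 among 12160 genes. At such low counts counting error alone can pass 2-fold, and its part was not tested. The sets were divided by Mki67 and Top2a, so genes that go with these 2 had to differ, and their values are a description. All 20 G2 and mitosis genes measured were lower, with a median ratio of 0.0398 against 0.918 over all genes. Ccna2, cyclin A2, was 1.07 CPM in members and 115 in the cycling cells, Plk1, a mitotic kinase, 0.614 and 64.7 CPM, Birc5, survivin, 5.83 and 391 CPM, and Nusap1 2.61 and 180 CPM. Esco2, Pimreg, Aspm, Kif2c, Nuf2 and the histone gene Hist1h1b were also 62.1-fold to 134-fold lower. With 3 UMIs in members, Esco2 had a ratio of 0.00748 with an interval of 0.00154 to 0.0219.

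S phase genes were also lower in sum, at 1855 CPM against 2732, a smaller gap than for the G2 and mitosis list. Of 15 measured on the list of 21, 4 were at least 2-fold lower and 4 had a ratio above 1, with a median of 0.790. The lower ones included Tyms, thymidylate synthase (90.6 and 271 CPM), and Fen1, a flap endonuclease (27.8 and 75.9 CPM). The others were the ribonucleotide reductase subunits Rrm1 (42.0 and 129 CPM) and Rrm2 (8.74 and 133 CPM). Rrm1, Rrm2 and Fen1 were measured through the cycling cells alone and could only be lower, so nothing is read from their direction. The count and the median thus partly follow from the minimum. Tyms reached the minimum in both sets. The subunits of the MCM helicase, which is loaded on DNA before replication starts, were near the cycling level: Mcm2 at 94.8 and 76.0 CPM, Mcm3 at 166 and 176, Mcm4 at 84.5 and 67.1, Mcm5 at 102 and 116, Mcm6 at 203 and 188 and Mcm7 at 127 and 140 CPM. Ung, uracil DNA glycosylase, was 52.3 and 26.0 CPM, 2.01-fold higher in members (1.76 to 2.30).

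At 2000 UMIs per cell the 21 S phase genes gave a median of 3 UMIs in members, 2 in the Prss34-low cells, 1 in the cKIT- cells and 5 in the cycling cells, and 1 in the Cd79a cells. The 21 G2 and mitosis genes gave medians of 2, 2, 3 and 13, and 1 in the Cd79a cells. Summed over the cells, the G2 and mitosis list stood at 1228 CPM in members and 7430 CPM in the cycling cells, and 694 CPM of the members' sum were Hmgb2, a chromatin protein also made outside mitosis. The word resting is used here only for low Mki67 and Top2a. No cycle phase was read from these sums.

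**Figure D5:**
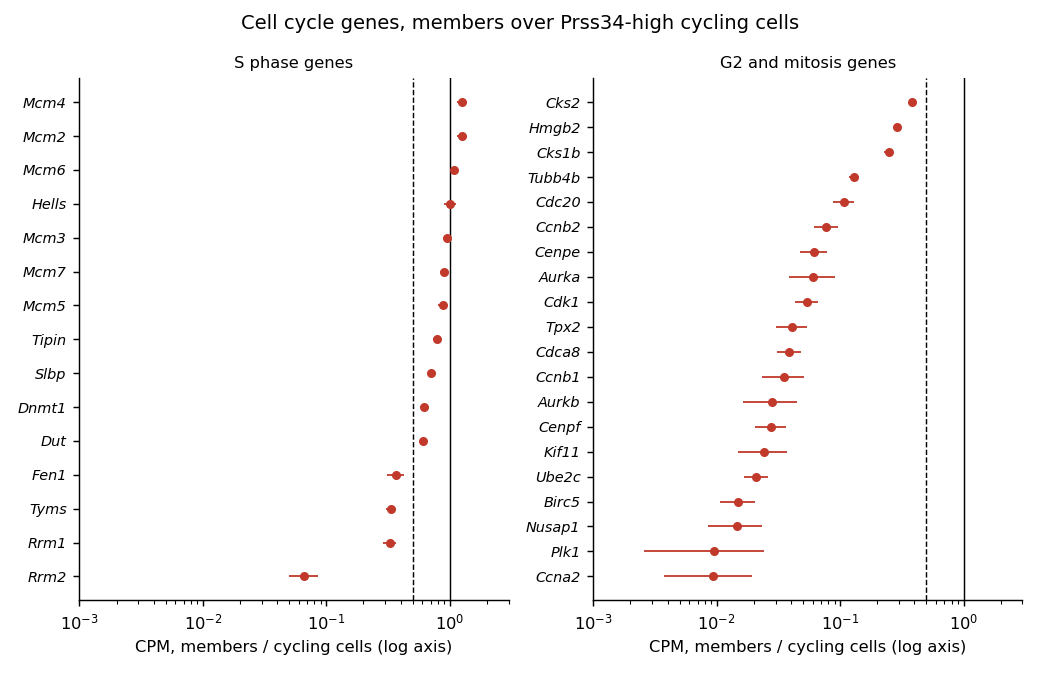
Ratio of CPM in members to CPM in the Prss34-high cycling cells (x axis, log axis) for the measured genes of the S phase list (left) and the G2 and mitosis list (right), with exact binomial 95% intervals. The solid line is a ratio of 1 and the dashed line 0.5. The Mcm genes lie near 1, and all G2 and mitosis genes lie left of 0.5.

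The 8 genes higher in members than in cycling cells were Retnlg, Tmem71, Ypel3, Gdpd3, Lgals3, Ltb, Gstm1 and Ung. Lgals3, galectin-3, was 228 and 103 CPM and Ltb, lymphotoxin β, 209 and 96.9 CPM. Ypel3 was 85.0 and 34.025 CPM and Tmem71 51.4 and 20.4 CPM. Retnlg, Ypel3, Tmem71, Gstm1 and Ung reached the minimum in members alone and could only be higher. Retnlg, at 126 and 11.4 CPM, had UMIs in 23 members, and a single cell held 32.7% of them. Its ratio went from 11.1-fold to 1.93-fold without the cells rich in neutrophil genes, to 0.428-fold once cells of the highest Scrublet scores were dropped and to 0.466-fold with a Prss34 limit of 2%. Basophil genes were close in both sets: the 7 markers measured had a median ratio of 1.03, with Cpa3 at 3529 and 3427 CPM, Igfbp7 at 142 and 182 and Alox15 at 98.6 and 69.2 CPM.

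On the list of cell cycle inhibitors and D cyclins, 2 of 6 measured were lower in members, Cdkn2c (7.98 and 50.3 CPM) and Cdkn2d (21.6 and 103 CPM), as were the globins Hba-a1 (3.83 and 81.0 CPM) and Hbb-bs (12.4 and 180 CPM), the 2 of 11 erythroid markers measured. These inhibitors and globins were measured through the cycling cells alone and could only be lower in members, so nothing is read from their direction. No gene passed 2-fold among 27 folding genes (median 0.858), 14 lysosome, 15 adhesion, 15 transcription factor, 8 cytokine receptor, 5 cytokine and chemokine and 9 neutrophil and granulocyte progenitor genes. The 75 ribosomal protein genes had a median ratio of 1.25.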

How the data were processed

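Both libraries were made with 10x Genomics 3' chemistry. Per the labels, the deposited UMI counts came from Cell Ranger 3.0.2 with mm10; the authors' cell filter was not applied to the deposited matrices (its steps leave 10141 of 10377 cells). The labels name chemistry v2 and the methods v3. No per-cell annotation was used; cells were chosen by fixed limits and no clustering was done. Counts were summed per set and scaled to CPM in python 3.11.15 (numpy 2.4.6, scipy 1.17.1). A gene counted as measured with 50 CPM in one of both sets and as higher or lower at 2-fold. Intervals were exact at 95%. A count of 0 was taken to allow up to 3. On simulated counts for the Prss34-low comparison, 200 of 200 genes changed 3-fold were found past 2-fold among 2342 measured, and 0 of 200 changed 1.5-fold among 2564. The changed genes were drawn from levels above the 50 CPM minimum, and the sums had Poisson error with no spread between cells. The simulation thus does not cover genes close to the minimum or genes held by few cells. Scrublet (scanpy 1.11.5) marked 256 cKIT+ and 3 cKIT- cells; its calls were not relied on, and no cell was removed by them. TMM factors were from edgeR 4.0.16.

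The members and gene lists were chosen with earlier results of these data known. Genes named were those of the rule, the basophil markers, Kit and Cdh1, up to 5 of each list, the 10 largest ratios each way with rule genes left out, the 20 most abundant genes, and the 10 largest ratios each way between the outer Prss34 ranges; genes named beyond these were chosen after their values were seen. Of 31053 identifiers, 31011 were in GENCODE M21. There are 18 alternatives, of which those leaving out cells rich in neutrophil genes, of shared barcodes or of 10% or more mitochondrial UMIs were chosen after seeing the data, as were all those for the Prss34 ranges.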

Additional observations from a re-analysis of the deposited data

How the results depend on the processing

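No paired analysis was possible because the sorts have a single library each, and no result has a test. Of 154 counts of cells or genes recomputed under the alternatives, 123 stayed within 1.5 times the reported one and 31 did not.

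The number of members was 357 with a Prss34 limit of 2%, and between 565 and 746 otherwise. Against the Prss34-low cells, genes at least 2-fold higher numbered 21 with TMM, 21 without the 10 most abundant genes, 247 with a minimum of 10 UMIs over both sets and 5 with 200 CPM. Lower genes numbered 3 with a Prss34 limit of 2%, 4 without the exclusion limits, 2 with each cell weighted the same, 3 after thinning to 2000 UMIs and 265 with 10 UMIs. Against the cKIT- cells, higher genes numbered 56 with 5000 UMIs per cell, 52 with a Prss34 limit of 2%, 934 with 10 UMIs and 27 with 200 CPM, and lower genes 107 with 5000 UMIs per cell, 745 with 10 UMIs and 54 with 200 CPM. Against the cycling cells, higher genes numbered 5 with a Prss34 limit of 0.5%, 365 with 10 UMIs and 2 with 200 CPM, and lower genes 797 and 38 with those last minimums. Between the outer Prss34 ranges, where a limit of 2% gives no value, higher genes numbered 35 without the 10 most abundant genes, 125 after thinning, 278 with 10 UMIs and 8 with 200 CPM, and lower genes 13 without the highest Scrublet scores, 104 after thinning, 595 with 10 UMIs, 4 with 200 CPM and 12 without the cells rich in neutrophil genes. The low minimum admits more genes by construction and the high one fewer. The low minimum and the thinning also leave fewer UMIs per gene and so more counting error. Its part and the other causes were not tested.

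Of 1239 ratios of single genes in the comparisons of members with the other sets, 1066 stayed within the reported interval, 166 left it and 7 changed direction. A change of direction was counted only for genes reported past 2-fold. Genes nearer to a ratio of 1 that crossed it are among the 1066 and 166. All 7 counted were neutrophil genes. Retnlg was 0.512-fold against the cKIT- and 0.466-fold against the cycling cells with a Prss34 limit of 2%, and 0.456-fold and 0.428-fold without the highest Scrublet scores, where Ngp was 0.195-fold against the cKIT- cells and Camp 0.980-fold against the Prss34-low cells. Camp was 0.974-fold without the cells rich in neutrophil genes. The ratios between the outer Prss34 ranges are not in this tally. Without the cells rich in neutrophil genes, S100a8 went there from 0.0616-fold to 1.197-fold, S100a9 from 0.0522-fold to 1.22-fold, Camp from 0.0830-fold to 1.12-fold and Retnlg from 0.0129-fold to 1.25-fold, and Ltf was left at 1.86 and 1.11 CPM. Lcn2 went there from 0.708-fold to 3.23-fold and Lyz2 from 0.228-fold to 0.836-fold. Ngp against the cycling cells, also outside the tally, went from 0.6395-fold to 1.16-fold. Lcn2 against the cKIT- cells, not among the 7, turned from 1.26-fold to 0.618-fold. Counts from 1 library per sort limit how far any of these values can be carried to other mice.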
